A study of Homo sapiens with 20 samples.

Results

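Sites of STAG1 and of STAG2 were compared with each other in M14 cells after STAG2 knockdown. A site is a peak interval of a deposited ChIP-seq list on chromosomes 1 to 22 or X. Each site of the STAG1 list was classed as shared if it overlapped a site of the STAG2 list of the same set by at least 1 bp and as STAG1-only otherwise, and STAG2 sites were classed likewise. The 4 STAG2-KD lists held 354708 sites, out of 1599606 sites in the 16 lists of STAG1, STAG2, CTCF and SMC1A. M14 is an established human melanoma line, and all groups used here carried a doxycycline-inducible shRNA against STAG2, selected with puromycin. STAG2-KD cells received doxycycline and WT cells did not, so effects of the drug and of the knockdown cannot be told apart, and a single hairpin was used per the study's methods. The methods state 5 days of doxycycline. The labels give 5 days for set 1 and no length for set 2. STAG1 and STAG2 were each read with their own antibody, so binding and antibody efficiency cannot be told apart, nor can remaining STAG2 protein and antibody background at the STAG2 sites that were left. Each group had a list in set 1 (libraries whose titles carry no number) and a list in set 2 (titles ending in 2), and the sets differed in library preparation and in the calling threshold. All comparisons were therefore made within a set. The labels do not say that the sets came from separate cultures, so an SD over the sets may be in part technical.

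Cohesin is a ring of SMC1A, SMC3 and RAD21 that extrudes and holds chromatin loops. A further subunit is either STAG1 or STAG2, which are paralogs and mutually exclusive in a given ring, and STAG2 is recurrently mutated in tumours. CTCF is a zinc-finger protein that binds DNA directly and at which loop extrusion often stops, so most strong cohesin sites carry CTCF, whereas cohesin without CTCF is often found at promoters and enhancers. A peak of SMC1A therefore marks a ring of either kind, and CTCF company marks an anchor-type site.

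The windows below show the base sequence of the 100 bases around the summit at strong sites of each class, for sites in the same class in both sets and outside UTRs. The first windows are of sites shared by STAG1 and STAG2, and capitals mark matches, on either strand, to a short CTCF core (the word AGAGGGC, the word AGATGGC, the word AGGGGGC or the word AGGTGGC). The lines name the nearest or overlapping protein-coding gene, and positions are hg19, plus strand.
KCTD15 neighbourhood, intergenic, chr19:34269078-34269177: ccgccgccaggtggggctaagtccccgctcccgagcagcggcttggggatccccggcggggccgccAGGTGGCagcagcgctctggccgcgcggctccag
WWC3 intron, chrX:10087582-10087681: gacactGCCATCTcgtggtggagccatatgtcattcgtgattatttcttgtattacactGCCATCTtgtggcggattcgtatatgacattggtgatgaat
NANOS3 intron, chr19:13991062-13991161: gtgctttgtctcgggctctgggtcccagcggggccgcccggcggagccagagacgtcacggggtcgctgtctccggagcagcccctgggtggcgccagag
ZBTB32 neighbourhood, intergenic, chr19:36184787-36184886: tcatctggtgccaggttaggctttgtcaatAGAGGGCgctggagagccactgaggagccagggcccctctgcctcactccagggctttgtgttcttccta

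The STAG1-only windows shown had ranks 3, 12, 14 and 15 by strength in their class. Of these 4, 2 held TGACGTCA, the palindromic cAMP response element, which capitals mark.
Start of a transcript with no protein-coding start within 24890 bp (CEP170 is nearest), chr1:243265061-243265160: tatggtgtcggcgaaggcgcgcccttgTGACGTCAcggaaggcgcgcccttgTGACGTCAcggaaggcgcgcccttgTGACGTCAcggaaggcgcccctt
Start of a transcript 23061 bp from the nearest protein-coding start (GPRASP3), chrX:102024034-102024133: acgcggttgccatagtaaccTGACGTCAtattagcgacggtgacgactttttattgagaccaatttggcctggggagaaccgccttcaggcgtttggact
ANAPC1 intron, chr2:112427584-112427683: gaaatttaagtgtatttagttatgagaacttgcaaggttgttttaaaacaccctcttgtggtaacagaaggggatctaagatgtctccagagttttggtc
BCL2L2 promoter, chr14:23775904-23776003: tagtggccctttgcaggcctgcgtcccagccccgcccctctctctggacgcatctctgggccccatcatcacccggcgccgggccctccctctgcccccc

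Windows of strong STAG2-only sites are shown because both lay within 126 bp of a gene start, the first with and the other without the word TCGCGAGA, the core of a palindromic element of housekeeping promoters. Capitals mark TCGCGAGA.
CDK12 promoter, chr17:37617564-37617663: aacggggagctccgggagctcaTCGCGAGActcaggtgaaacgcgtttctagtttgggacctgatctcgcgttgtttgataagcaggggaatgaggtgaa
CXXC1 promoter, chr18:47814229-47814328: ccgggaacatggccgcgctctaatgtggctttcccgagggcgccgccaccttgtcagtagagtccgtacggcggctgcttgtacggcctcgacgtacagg

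After STAG2 knockdown, most STAG1 and STAG2 sites lay at the same places, and the lists differed mainly in weak sites. In set 1 the STAG1 list held 85527 sites and the STAG2 list 58418. In set 2 they were of nearly equal length, with 104628 STAG1 and 106135 STAG2 sites. Of the STAG1 sites, 31516 had no STAG2 peak in set 1 (36.8% of the list) and 18664 in set 2 (17.8%), which gives 27.3% ± 13.4 (SD, n = 2). Of the residual STAG2 sites, 4034 had no STAG1 peak in set 1 (6.91%) and 22424 in set 2 (21.1%), or 14.02% ± 10.1 (SD, n = 2). The STAG1 and STAG2 lists were thus not ordered alike in the 2 sets: STAG1-only sites outnumbered STAG2-only sites in set 1, and STAG2-only sites outnumbered STAG1-only sites in set 2.

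The log2 ratio of STAG1 to STAG2 site number was 0.55 in set 1 and −0.02 in set 2, with a mean of 0.26 ± 0.40 (SD, n = 2). It did not pass a two-sided exact permutation test of 2 lists against 2 (p = 1), a design whose smallest p is 0.333. Read depth, estimated from the deposited enrichment and significance values, was 40.2 M (STAG1) and 42.5 M reads (STAG2) in set 1 and 65.1 M and 66.9 M in set 2, a STAG1 to STAG2 ratio of 0.947 and 0.973. The values of the STAG2 lists imply pileups scaled down by a factor of 0.958 and 0.981, to the equivalent of 40.7 M and 65.6 M reads (ratios of 0.988 and 0.992). Taken at equal numbers of the strongest sites in each set, the lists had 18.4% ± 0.201 STAG1-only and 18.6% ± 2.66 STAG2-only sites (SD, n = 2). With lists of equal length these shares must lie close together, because shared sites are about as many in either list. Their likeness is therefore no result about binding. In base pairs, the intersection of the lists was 21.9 of 39.4 Mb of their union in set 1 (Jaccard index 0.555) and 53.6 of 83.2 Mb in set 2 (0.644). The shared bases were 58.5% of the STAG1 and 91.5% of the STAG2 bases in set 1, and 80.6% and 76.3% in set 2.

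In WT cells, which received no doxycycline, unshared sites were mostly those of STAG2 in both sets. STAG1-only sites were 9.13% and 11.4% of the WT STAG1 lists and STAG2-only sites 28.7% and 28.9% of the WT STAG2 lists. The log2 ratio of site numbers was −0.32 and −0.27 there, and it was higher in STAG2-KD by 0.87 in set 1 and 0.25 in set 2. The STAG2-KD and WT ratios did not overlap, and the exact permutation p of this difference was 0.333, the smallest possible.

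**Figure D1:**
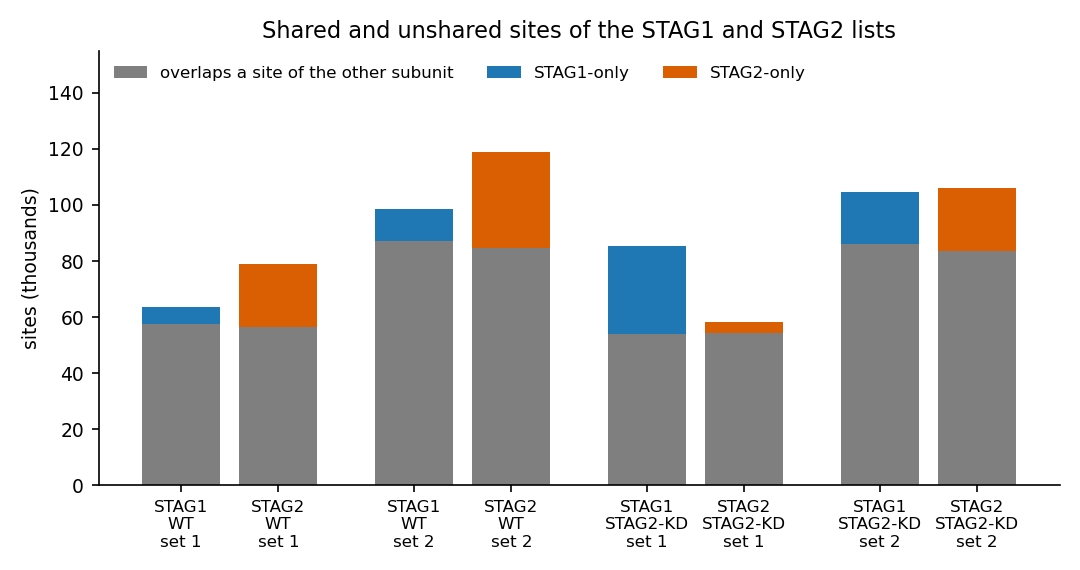
Number of sites in each STAG1 and STAG2 list of WT and STAG2-KD cells, by set. Grey is the part that overlaps a site of the other subunit in the same condition and set, and blue (STAG1) or orange (STAG2) is the part that does not. The blue part was 36.8% of the STAG2-KD STAG1 list in set 1 and 17.8% in set 2.

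Sites without the other subunit were mostly weak in either list. Strength is given as the percentile of a site's −log10 p within its own list, 100 being the strongest. The median STAG1-only site stood at percentile 23.4 in set 1 and 18.5 in set 2, and the median STAG2-only site at 13.8 and 18.0. Shared sites had medians of 68.4 and 58.7 in the STAG1 lists and 53.2 and 60.4 in the STAG2 lists. Unshared sites were also narrow, with a median width of 201 and 235 bp (STAG1-only) and 183 and 264 bp (STAG2-only), against 540 and 644 bp for shared STAG1 peaks.

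The unshared share fell with strength. Each list was divided by strength into 10 bins of about equal size. In the weakest bin of STAG1 sites, 82.4% in set 1 and 51.1% in set 2 had no STAG2 peak, and in the strongest bin 2 of 8553 and 2 of 10463 had none. For STAG2 sites the weakest bin was 26.1% and 62.8% unshared, and in the strongest bin 13 of 5842 and 6 of 10613 sites lacked a STAG1 peak. A site just under the calling threshold in the other list counts as absent, and the part of this in the weak bins was not tested. The median STAG1-only site lay 7.66 kb (set 1) and 4.01 kb (set 2) from the nearest STAG2 site, and 19.3% and 26.8% of them lay within 1 kb of one.

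**Figure D2:**
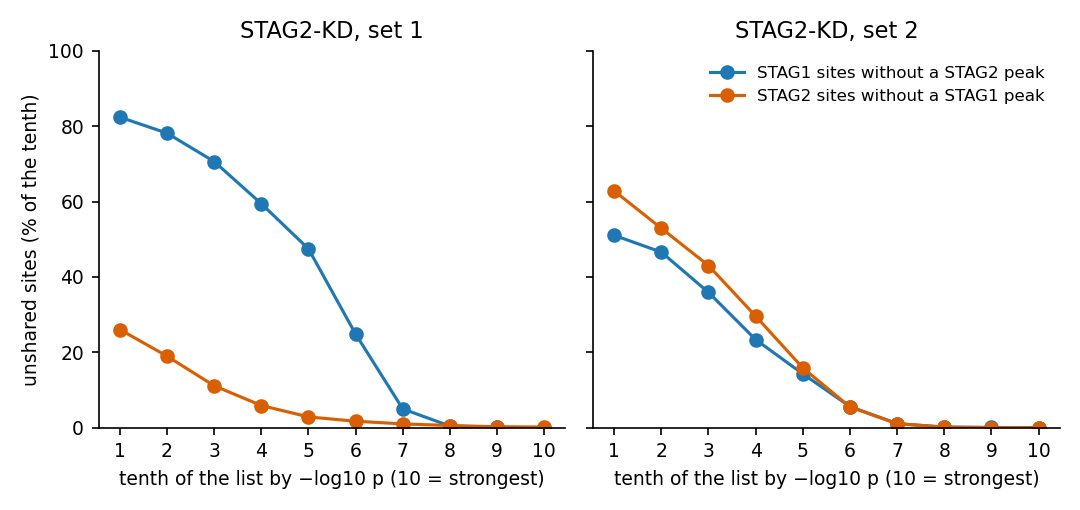
Share of sites without the other subunit in each of 10 strength bins of the STAG1 (blue) and STAG2 (orange) lists of STAG2-KD cells, from the weakest to the strongest by −log10 p, with a panel for each set. The curves start at up to 82.4% for STAG1 in set 1 and 62.8% for STAG2 in set 2 and end at 0.223% or less in the strongest bin.

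At shared sites the ranks of the subunits went together. Spearman's rho of the STAG1 and STAG2 percentiles across sites was 0.88 in set 1 (n = 54011) and 0.82 in set 2 (n = 85964), where sites are no replicates and both lists share the cells and the input. The summits of the peaks were a median of 18 and 56 bp apart. STAG1 ranked higher than STAG2 by a median of 10.4 percentile points in set 1 and lower by 1.01 points in set 2. Since an added tail of weak STAG1 sites lifts every percentile above it, the level of this difference depends on list length. The lift is larger for weak than for strong sites, so differences between kinds of sites are not free of it. In set 1 the median STAG2 percentile was 61.9 at shared sites with CTCF and SMC1A, 26.2 with CTCF alone and 22.8 with SMC1A alone. The part of list length in the group differences below was not tested.

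Among shared sites grouped by company, the rank of STAG1 relative to STAG2 was lowest in each set where SMC1A stood without CTCF and highest where CTCF stood without SMC1A. The median STAG1 minus STAG2 difference was 20.4 points in set 1 and 5.23 in set 2 at the 3234 and 4583 shared sites with CTCF and no SMC1A peak. It was 6.46 and −12.2 points at the 5733 and 15062 shared sites with SMC1A and no CTCF. At shared promoters it was 5.93 and −5.56 points, against 11.8 and 0.79 between genes. The 4 company groups had the same order in both sets, and promoters were the lowest of the 4 places in both, although the quartiles of each group were wide, for example −26.3 to 1.07 points at the sites with SMC1A without CTCF in set 2.

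CTCF and SMC1A, read from the STAG2-KD lists of the same set, divided the unshared sites in opposite ways. A CTCF peak overlapped 52% and 47.7% of the STAG1-only sites of sets 1 and 2, but 26% and 27.6% of the STAG2-only sites. An SMC1A peak overlapped 50.8% and 52.8% of the STAG1-only sites and 62.4% and 66.0% of the STAG2-only sites. Shared STAG1 sites had CTCF at 87.5% and 80.8% and SMC1A at 92.1% and 93.0%.

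The difference between STAG1-only and STAG2-only sites was 23.1 ± 4.14 percentage points for CTCF and −12.4 ± 1.09 for SMC1A (SD, n = 2), several times the spread between sets in both cases. In each the groups did not overlap, and the exact permutation p was 0.333, the smallest possible (0.667 after Benjamini-Hochberg adjustment over 4 tests). Outside promoters the differences were 30.8 ± 10.3 points for CTCF and −9.54 ± 4.48 for SMC1A, in a setting added after the values were seen.

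Combined, SMC1A without CTCF was the most frequent state of STAG2-only sites, at 43.7% and 47.9%, against 22.3% and 25.4% of STAG1-only sites. CTCF without SMC1A was found at 23.4% and 20.3% of STAG1-only sites and 7.21% and 9.43% of STAG2-only sites. Neither protein had a peak at 25.8% and 26.9% of STAG1-only and 30.3% and 24.5% of STAG2-only sites, but at only 1.88% and 1.68% of shared STAG1 sites. From the side of the partners, STAG1 sites with CTCF and SMC1A lacked STAG2 in 17.0% and 7.31% of cases, and those with CTCF alone in 69.6% and 45.3%. STAG2 sites with CTCF and SMC1A lacked STAG1 in 1.68% and 5.95%, and those with SMC1A alone in 23.3% and 44.3%.

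Because unshared sites are weak, company was also read within 4 strength bins of each list. In the weakest bin, a CTCF peak stood at 37% of STAG1-only and 38.2% of shared STAG1 sites in set 1 and at 38.3% and 46.3% in set 2. In the next bin the values were 64.4% and 64.7% in set 1 and 63.4% and 65.7% in set 2. In these bins STAG1-only sites carried CTCF about as often as shared STAG1 sites, except in the weakest bin of set 2. In the strongest bin, which held 30 and 23 STAG1-only sites, CTCF was at 26.7% and 21.7% of them against 99.7% and 99.5% of shared sites, and 100% and 95.7% of these STAG1-only sites were promoters. SMC1A, in contrast, was at 45.7% of STAG1-only against 82.1% of shared STAG1 sites in the weakest bin of set 1, and at 49.1% against 83.4% in set 2.

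STAG2-only sites carried CTCF less often than shared STAG2 sites of like strength in both sets. In the weakest bin 25.7% (set 1) and 24.6% (set 2) had CTCF, against 62.5% and 60.2% of shared STAG2 sites. In the next bin it was 26% and 32.1% against 84.5% and 68.4%. SMC1A was at 63.8% and 59.3% of STAG2-only sites of the weakest bin and at 80.1% and 76.0% of the shared ones. In the next bin it was at 58.5% and 77.6% against 88% and 87.5%.

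**Figure D3:**
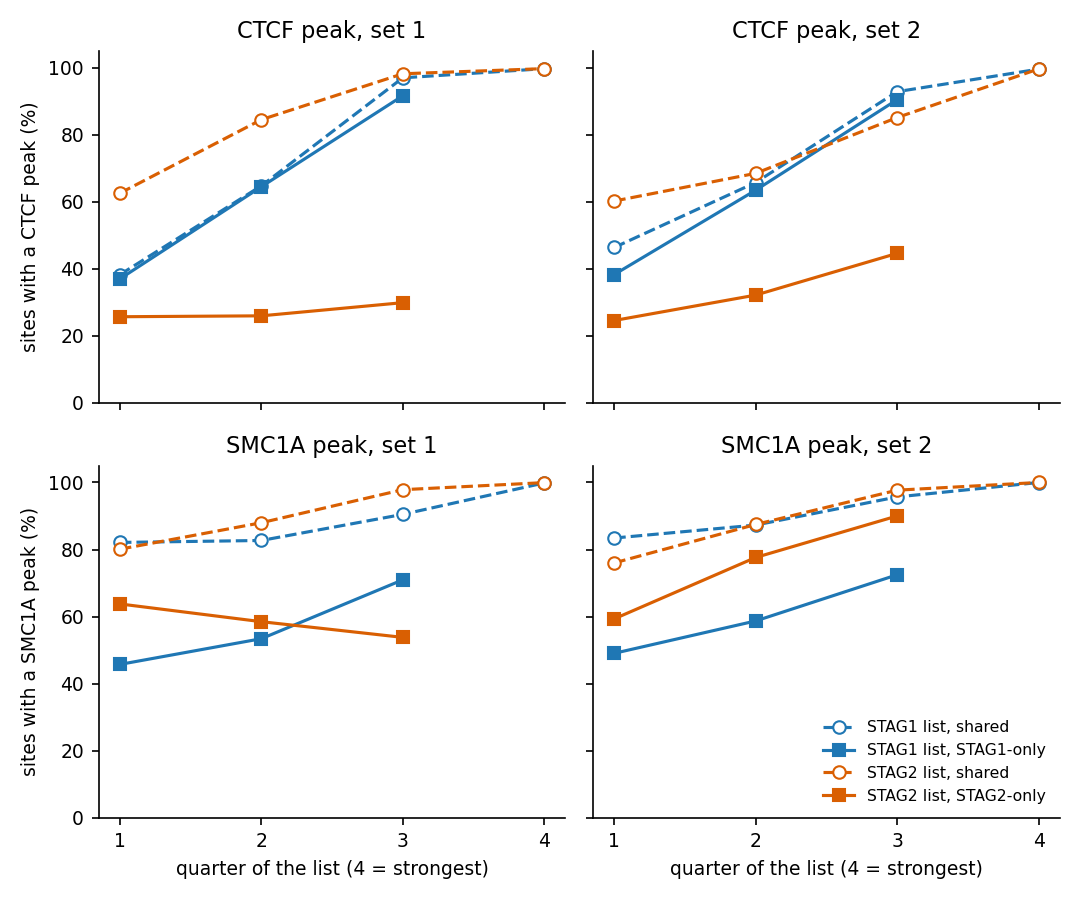
Share of sites with an overlapping CTCF (top) or SMC1A peak (bottom) by strength bin (4 per list) of the STAG1 (blue) or STAG2 list (orange) of STAG2-KD cells, for sets 1 and 2. Open circles with dashed lines are shared sites and filled squares are unshared sites; points with under 100 sites are left out. In the bin next to the weakest, CTCF stood at 64.4% of STAG1-only and 64.7% of shared STAG1 sites in set 1, but at 26% of STAG2-only and 84.5% of shared STAG2 sites.

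The same contrast was present in the WT lists. There CTCF was at 52.7% and 45.7% of STAG1-only and 32.8% and 31.8% of STAG2-only sites, and SMC1A at 38.4% and 44.4% and at 51.8% and 56.5%. Of the STAG1-only sites after knockdown, 34.4% and 41.7% had a STAG1 peak in the WT list of their set, 41.1% and 36.9% had a WT STAG2 peak, and 47.8% and 43.4% had neither. Of the STAG2-only sites, 60.0% and 62.0% had a WT STAG2 peak and 12.2% and 24.2% a WT STAG1 peak.

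The genomic place of STAG2-only sites depended on the set far more than that of STAG1-only sites. Promoters, taken as within 1 kb of an annotated transcript start, held 23.5% and 17.0% of STAG1-only and 25.9% and 24.5% of shared STAG1 sites. They held 63.3% of the STAG2-only sites in set 1 and 21.9% in set 2. Introns held 20.6% of STAG2-only sites in set 1 and 49.8% in set 2. The promoter difference between STAG1-only and STAG2-only sites was −22.3 ± 24.7 percentage points (SD, n = 2), a mean no larger than its spread, with an exact permutation p of 0.667.

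In set 1, 15.3% of the STAG2 sites at promoters lacked STAG1, against 2.92% in exons, 3.61% in introns and 3.56% between genes. In set 2 these shares were 20.1%, 16.6%, 23.4% and 19.0%. For STAG1 sites the places differed little in set 1, where 34.6% at promoters and 38.0% in introns lacked STAG2, and promoters were lowest in set 2 with 13.1% against 20.01% between genes. GC content around the summit had medians of 59.7% and 46.8% at STAG2-only, 47.8% and 44.3% at STAG1-only and 48.8% and 47.8% at shared STAG1 sites.

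**Figure D4:**
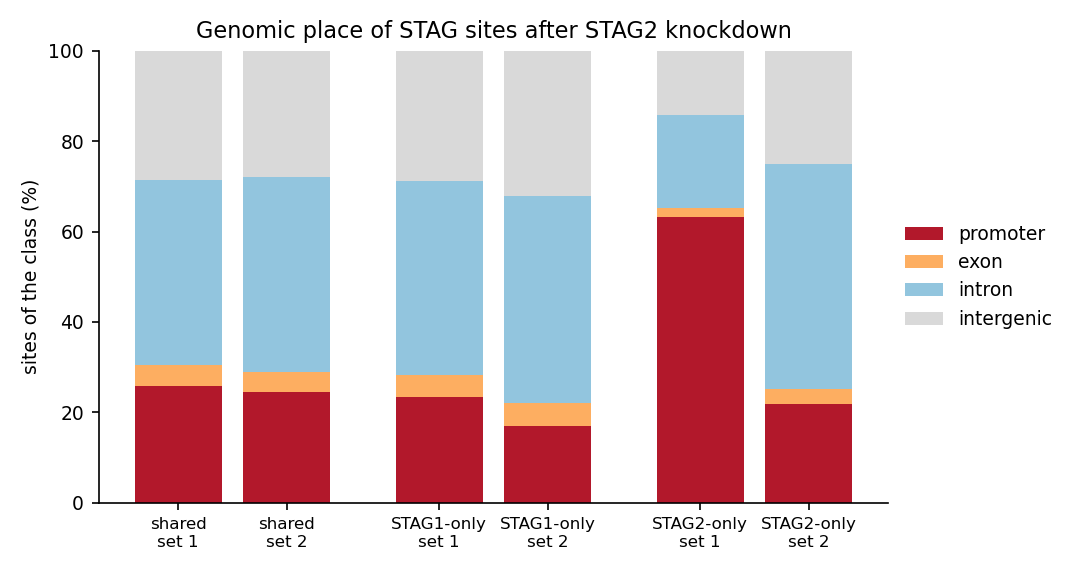
Genomic place of shared STAG1 peaks, STAG1-only sites and STAG2-only sites in STAG2-KD cells, in percent of the class, for sets 1 and 2. The red promoter part is 63.3% of the STAG2-only sites in set 1 and 21.9% in set 2, and lies between 17.0% and 25.9% in the other classes.

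The unshared classes were poorly kept between the sets, and shared sites were well kept only when read from set 1. Shared sites of set 1 had both peaks in set 2 in 97.9% of cases. Of the STAG1-only sites of set 1, 71.3% had both peaks in set 2, 21.6% had STAG1 alone, 1.68% had STAG2 alone and 5.33% had none. Of the STAG2-only sites of set 1, 61.7% had both peaks in set 2 and 33.3% had STAG2 alone. Read the other way, 58.8% of the shared STAG1 sites of set 2 had both peaks in set 1, 22% had STAG1 alone and 16.9% had none. Of the unshared sites, 66.8% of the STAG1-only and 93.4% of the STAG2-only sites of set 2 had no STAG peak at all in the shorter lists of set 1.

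Sites in the same class in both sets numbered 6096 for STAG1-only, 939 for STAG2-only and 52861 for shared, counted at STAG1 peaks. The unshared counts depended on the settings: with equal numbers of peaks 1565 sites were STAG1-only in both sets, and at a −log10 q of at least 5 1641 were STAG2-only. Opposite classes were found at 434 sites that were STAG1-only in set 1 and STAG2-only in set 2, and at 4 with the reverse. The 434 were few beside the 6096 sites STAG1-only in both sets, but not beside the 939 STAG2-only in both. Of the STAG2-only sites of set 2, 4.098% had STAG2 alone in set 1 and 1.958% had STAG1 alone. Of the 6096 STAG1-only sites, 48.6% had CTCF and 29.1% had SMC1A in both sets, and 15.3% were promoters. Of the 939 STAG2-only sites, 18.8% had CTCF and 44.7% had SMC1A in both sets, and 63.9% were promoters. A WT peak of STAG2 in both sets was present at 41.5% of these STAG2-only sites and a WT peak of STAG1 at 4.37%. For the STAG1-only sites, WT STAG1 was present at 23.2% and WT STAG2 at 14.2%.

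The strongest sites of each class were ranked by the sum of their percentiles. The 6 strongest shared sites stood at percentiles of 99.8 or higher in all 4 lists, and all carried CTCF and SMC1A in both sets. They lay near KCTD15, in introns of WWC3 and NANOS3, near ZBTB32, and at the promoters of COL1A1, a type I collagen chain, and NOTUM, a secreted enzyme that inactivates Wnt ligands. At the first of them, chr19:34268769-34269540, the fold enrichment over background was 86.5 and 56.3 for STAG1 and 73.7 and 45.5 for STAG2 in sets 1 and 2. Of the 4 windows shown above, 3 held the short CTCF core. In all, it was within 100 bp of the summit of 45.3% and 35.7% of shared STAG1, 27.8% and 20.9% of STAG1-only and 22.3% and 16.6% of STAG2-only sites, against 10.0% to 10.9% of windows 5 kb away and 25.3% of windows at protein-coding gene starts.

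The strongest STAG1-only site was the BAP1 promoter (chr3:52443689-52444351, 4 bp from a start), where BAP1 is a deubiquitinase and tumour suppressor. Its STAG1 peak stood at percentile 96.6 in set 1 and 96.9 in set 2, with fold enrichments of 65.9 and 33, and at 99.4 and 97.9 in the WT STAG1 lists. CTCF and SMC1A overlapped it in set 2 and not in set 1. The next were the start of MTHFSD (percentiles 82.9 and 95.3), the transcript start nearest to CEP170 (80.4 and 81.9), and the starts of KLHDC4 (74.1 and 85.9), ZNG1B (75.2 and 78.5) and NUP155, a nuclear pore scaffold protein (69.0 and 83.6). ZNG1B belongs to a family of near-identical copies, so the placement of its reads is uncertain. All 6 had a WT STAG1 peak in both sets, none had a WT STAG2 peak in set 1, and of the 6 NUP155 alone had one in set 2, at percentile 10.6.

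The strongest residual STAG2-only site was the CDK12 promoter (chr17:37617228-37618079), 86 bp from the start of this kinase of transcription elongation. It stood at percentile 99.6 in set 1 and 99.8 in set 2, with fold enrichments of 52.7 and 30.5, carried SMC1A and no CTCF in both sets, and had no STAG1 peak in either set, WT or STAG2-KD. Other strong STAG2-only sites were the promoters of IREB2, an iron-responsive RNA-binding protein (percentiles 98 and 93.9), CXXC1, which binds unmethylated CpG (91.1 and 93.5), and ZNF317 (95.2 and 86.1). IREB2 and CXXC1 carried CTCF in both sets and ZNF317 in neither, and all of them carried SMC1A in both sets. These 4 sites, CDK12 included, lay within 148 bp of a start. All 4 had a WT STAG2 peak in both sets, at percentiles of 54.3 to 72.4, lower than after knockdown at each site. IREB2 and CXXC1 also had a weak WT STAG1 peak in set 2, at percentiles 13.3 and 8.74.

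Higher STAG2 values after knockdown than in WT were also found over the 50 strongest STAG2-only sites, but not at ranks 301 to 900. Their median percentile was 72.3 and 72.6 in the STAG2-KD lists and 40.6 and 45.0 in the WT lists, and their median fold enrichment was 18.4 and 9.75 after knockdown and 6.29 and 4.10 in WT, where 40 of the 50 had a STAG2 peak in both sets. At ranks 301 to 900 the median percentile was 10.2 and 34.5 after knockdown and 19.6 and 37.8 in WT, and the median fold enrichment 4.22 and 3.50 against 4.60 and 3.68. For the 50 strongest STAG1-only sites the median STAG1 fold enrichment was 12.4 and 9.26 after knockdown and 10.3 and 9.39 in WT, and 50 of 50 had a WT STAG1 peak in both sets. The sites were ranked on their STAG2-KD values, which favours high values there, and WT medians cover only sites with a WT peak. Promoters were 98% of the 50 STAG2-only and 46% of the 50 STAG1-only sites. SMC1A was present in both sets at 52% and 58% of them, and CTCF at 22% and 54%.

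Sequence around the summits differed between the classes. The 14 motifs searched included 5 that were chosen after values were seen, namely the short CTCF core, TCGCGAGA, TGACGTCA, AAGATGGC and GGAATGGA; all were read on both strands within 100 bp of the summit. The longer CTCF core motif was in 23.2% and 15.8% of shared STAG1, 8.99% and 5.36% of STAG1-only and 1.44% and 1.97% of STAG2-only windows, against 0.615% to 0.793% in windows 5 kb away and 1.62% at protein-coding gene starts. The difference between STAG1-only and STAG2-only sites was 5.47 ± 2.94 percentage points (SD, n = 2). The AP-1 motif (TGACTCA or TGAGTCA), bound by FOS and JUN proteins at enhancers, was most frequent at STAG2-only sites outside promoters in both sets, whereas the order of STAG1-only and shared sites differed between the sets. It was in 14.8% and 16.5% of STAG2-only, 9.67% and 6.03% of STAG1-only and 5.73% and 7.56% of shared STAG1 windows there, and in 3.11% to 3.27% of windows 5 kb away. The share at all gene starts was 2.64%.

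The word TCGCGAGA was frequent at the strongest STAG2-only promoters and not at STAG2-only promoters as a whole in set 2. It was in 46% of the 50 strongest STAG2-only sites, 26% of the next 50 and 3.50% of the next 200, and in 0% of the 50 strongest STAG1-only sites. Over promoters of each class within a set, it was in 116 of 2552 STAG2-only (4.55%) and 5 of 7401 STAG1-only promoters (0.0676%) in set 1, and in 48 of 4915 (0.977%) and 3 of 3181 (0.0943%) in set 2. Shared promoters held it in 1.29% and 1.097% of windows centred on the STAG2 summit and in 0.664% and 0.551% of those centred on the STAG1 summit, so that the STAG2-only share lay above the shared one in set 1 and slightly below it in set 2. At all gene starts it was in 1.16%. Of the 600 promoters that were STAG2-only in both sets, the 45 with the word stood at median percentiles of 56.9 and 65.1, and the 555 without it at 17.2 and 39.9. The word lay a median of 17 bp from the summit. Among the named sites it was found at CDK12 and IREB2.

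AAGATGGC, the core of the YY1 motif, was in 60 of 600 promoters that were STAG2-only in both sets, 1.28% of the STAG1-only ones and 2.51% of shared ones centred on STAG2, with 3.00% at all gene starts. In set 2 alone its share was the same in STAG2-only (2.44%) and shared promoters (2.43%). It contains AGATGGC, a word of the short CTCF core. TGACGTCA, in contrast, was in 16% of the 50 strongest STAG1-only and 2.00% of the 50 strongest STAG2-only sites, and in 1.87% of gene starts. Over all promoters that were STAG1-only in both sets it was in 13 of 935 (1.39%), near the 1.24% of shared ones centred on STAG1. These matches are words in the sequence and not measured binding of a factor.

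**Figure D5:**
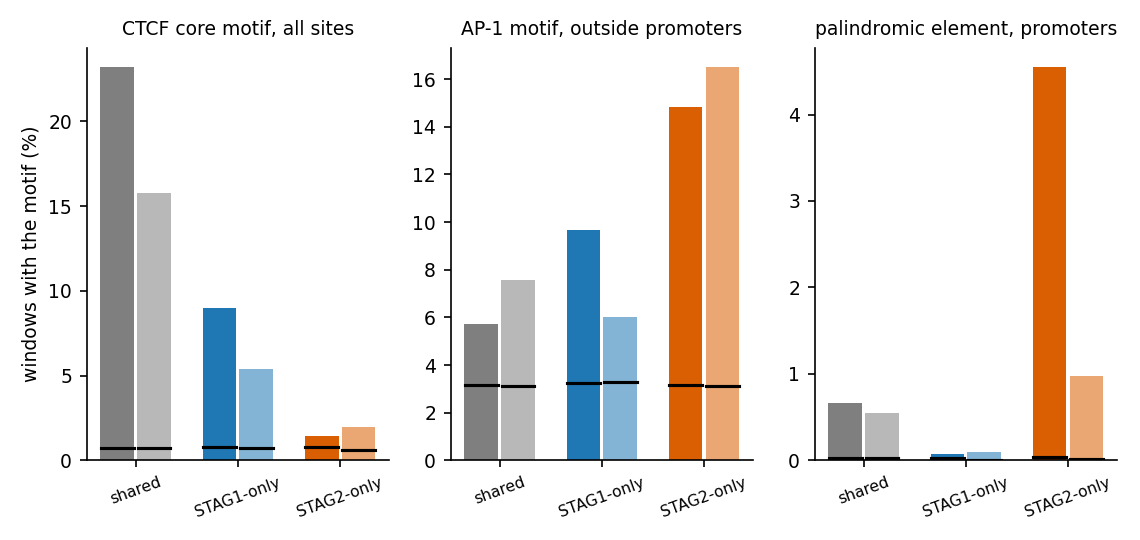
Share of 201-base windows around summits that hold the longer CTCF core motif (all sites), the AP-1 motif (sites outside promoters) or the palindromic word TCGCGAGA (promoters), in shared STAG1, STAG1-only and STAG2-only sites of STAG2-KD cells. Full colour is set 1, pale colour set 2, and black lines are windows 5 kb away. STAG2-only sites were lowest for CTCF, at 1.44% and 1.97%, and highest for AP-1, at 14.8% and 16.5%.

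Some unshared sites were crowded. Between 49 and 50 Mb of chromosome 4, 35 of 40 STAG2 sites in set 1 and 19 of 29 in set 2 were STAG2-only, and the satellite word GGAATGGA was in 35 and 17 of the STAG2 windows of these lists. None of the 35 STAG2-only sites of set 1 carried CTCF or SMC1A, and of the 19 of set 2, 1 carried CTCF and 2 carried SMC1A. Between 10 and 11 Mb of chromosome 21, 18 of 25 and 15 of 23 STAG2 sites were STAG2-only. For STAG1 the most crowded window of set 1 was chromosome 6 from 26 to 27 Mb, which holds histone genes. There 51 of 90 STAG1 sites were STAG1-only, 44 of them with SMC1A and 11 with CTCF, but in set 2 27 of 104 STAG1 and 25 of 95 STAG2 sites were unshared.

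The loci that the study examined held both shared and unshared sites. IRF9, the DNA-binding subunit of the interferon-activated ISGF3 complex, had a single site of each subunit within 10 kb, at its promoter, with CTCF and SMC1A in both sets. STAG1 stood there at percentiles 66.3 and 72.7 and STAG2 at 57.4 and 79.7. CD274, which encodes PD-L1, had a shared promoter site, with STAG1 at 70.1 and 79.9 and STAG2 at 85.5 and 92.8, and a shared upstream site. At ISG15, an interferon-induced ubiquitin-like protein, 1 of 10 STAG2 sites of set 1 was unshared, at percentile 2.41. Near IRF7, an interferon regulatory factor, a site beyond the end of the gene (chr11:612155-612288) was STAG1-only at percentile 16.6 in set 1 and shared in set 2. USP18, a negative regulator of interferon receptors, had a STAG1-only intronic site at percentile 46.6 in set 1, with no STAG1 site there in set 2, and a shared intronic site with STAG1 at 73.3 and 82.8.

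At DUSP6, an ERK phosphatase, 2 of 9 STAG1 sites were STAG1-only in set 1 and 2 of 6 STAG2 sites were STAG2-only in set 2. Among these loci, the sole site in the same unshared class in both sets lay in an intron of STAG1 itself (chr3:136070794-136071162), a STAG1-only site with CTCF and SMC1A at percentiles 52.6 and 60.1. The STAG2 gene had 5 of 15 STAG1-only sites and 1 of 11 STAG2-only sites in set 1, and 2 of 17 and 6 of 20 in set 2.

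Promoters of gene groups were read by class in both sets. Of 20090 protein-coding genes, 43.1% had a shared site at a promoter in both sets, 1.03% had STAG1-only sites alone and 1.79% STAG2-only sites alone. Ribosomal protein genes, which encode the structural proteins of the ribosome, had 47 of 71 shared and 5 of 71 STAG2-only in both sets (7.04%), for example RPL35A and RPL37. STAG1-only in both sets were 0 of 71. Among 17 genes of cohesin and its regulators, 11 were shared and SMC1A itself was STAG2-only in both sets.

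Among 23 melanocyte lineage genes, 14 were shared and OCA2, a melanosomal transporter, was STAG1-only in both sets. Interferon pathway genes were shared in 18 of 36 cases and MAPK feedback genes in 17 of 19, and 9 of 16 genes of the dedifferentiated melanoma state were shared. In these 3 lists 0 genes were STAG1-only or STAG2-only in both sets. Of 16 liver genes, included as genes that melanoma cells do not use, 14 had no STAG1 or STAG2 site at a promoter in either set, against 29.7% of all protein-coding genes.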

How the data were processed

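ChIP-seq used antibodies against STAG1, STAG2, CTCF and SMC1A in M14 WT and STAG2-KD cells, in 2 sets of libraries; the 4 input libraries served as the authors' controls and have no list used here. Per the study's methods, the authors aligned reads to hg19 with bowtie2, removed duplicates and called peaks with MACS2 against input, 1 list per library; the labels of set 2 name BWA and CASAVA 1.4, so its aligner is uncertain. The deposited columns are a score, a fold enrichment (ratio of pileup to background), −log10 p-value, −log10 q-value and the summit offset (an other unit, in bp). The deposited score is 10 times −log10 q in set 1, thresholded at −log10 q of 2, and 10 times −log10 p in set 2, thresholded at −log10 p of 2. Libraries were selected to 200 to 600 bp with beads (set 1) or 200 to 500 bp on a gel (set 2).

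Sites on chromosomes 1 to 22 and X were compared within a set with Python 3.11.15, pandas 2.3.3, scipy 1.17.1 and pysam 0.24.0, overlap being at least 1 bp. Presence or absence at the authors' thresholds is no test of differential binding, and antibody efficiency and binding cannot be told apart between STAG1 and STAG2. Sequence and GENCODE 44 annotation were of the build of the files. List values are given per set or as mean ± SD (n = 2); sites are not replicates. The Wilson 95% interval of a share of a full class within a set was within ±1.53 percentage points, which covers counting error only. Shares of smaller groups, such as the strongest sites or the unshared sites of a strength bin, can have wider intervals. Depth was estimated from the deposited fold and p-values for a genome of 2.7 Gb, with reads taken to be extended to the width of the narrowest peak (120 or 150 bp), which no source states. Overlap and depth functions were tested on simulated data. Named sites were the 6 strongest of each class in both sets, sites within 10 kb of 8 loci the study examined, and genes of 7 lists by promoter class, some of which are not reported here; the protein-coding gene over the midpoint or with the nearest start is named. The members, lists and tests were chosen with earlier results of these data known.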

Additional observations from a re-analysis of the deposited data

Results flagged for a closer look

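Peaks outside chromosomes 1 to 22, X and Y were part of the deposited lists and entered none of the comparisons. Peaks on chromosome Y were left out as well and are not in the shares that follow. They made up 3.82% of the STAG1 list and 3.85% of the STAG2 list of STAG2-KD cells in set 1, on 241 and 231 sequences. In set 2 they were 0.20% of the STAG1 and 0.227% of the STAG2 list, on 40 sequences each. With all deposited rows included, those of chromosome Y among them, the mean STAG1-only share was 27.4% and the mean STAG2-only share 14.1%.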

How the results depend on the processing

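Of 130 values recomputed under 14 settings, 116 kept their direction and stayed within the spread between sets (counts within 1.5 times). Leaving out a set gave a log2 ratio of site numbers of -0.021 to 0.55, which reverses its sign without set 1, STAG1-only shares of 17.8% to 36.8% and STAG2-only shares of 6.91% to 21.1%. The replicate block, an exact sign-flip test within sets, gave a log2 ratio of 0.26 with p = 1, where 0.5 is the smallest possible. With equal numbers of peaks, the median STAG1-only percentile was 17.3 and 1565 sites were STAG1-only in both sets; the ratio of site numbers is then fixed at equality, so none is given. At −log10 q of at least 5, the CTCF motif difference was 8.48 percentage points and 1641 sites were STAG2-only in both sets. The cause of these shifts was not tested. All 18 sites chosen as the strongest of their class kept their class with a common or stricter threshold, equal numbers, 50% overlap and a 500 bp join. This says little, because sites chosen as strong are kept by a threshold. All settings but the join only remove peaks or overlaps, so only the join could have made an unshared site shared. The mean AP-1 share of STAG2-only sites outside promoters was 15.7%, and 8.57% within 50 bp of the summit, where fewer bases are searched. Counts over both sets cannot be had without a set. Exact tests of 2 lists against 2 cannot reach 0.05, weak sites depend on the threshold, and intervals of shares cover counting error only.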
